A study of Zea mays with 24 samples.

Results

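The maize plasma membrane intrinsic proteins (PIP) were followed along the leaf as a family of 9 genes, of 39634 genes listed in each of 4 deposited tables. PIPs are the aquaporins of the plant plasma membrane. The 9 genes were taken by identifier as the listed PIP1 and PIP2 genes, and 8 of them carry a PIP name in the RefSeq table used here: 2 PIP1 genes (PIP1-1 and PIP1-5) and 6 PIP2 genes (PIP2-1 to PIP2-6, of which PIP2-6 is also called pip2f). The remaining one, GRMZM2G136032, has no name there and is given by its identifier.

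The study compared dct2-1 mutant and wild-type seedlings of the maize inbred W22, the mutant carrying a defective allele of pDCT2, which encodes a dicarboxylate carrier of the plastid envelope. Leaves of 9-day-old plants were cut at 4 positions counted from the ligule of leaf 2, from the base (-4) through the transition to light-exposed tissue (-1) and the middle of the blade (+4) to the tip (+10). The labels list 3 libraries for each genotype and position, 24 in all, each from 15 pooled plants. For all groups they give 16 hours of light per day at 500 µmol per square metre per second, 28 °C and 40% humidity. The deposited tables name their groups only q1 and q2 and do not say which is dct2-1, so every difference is given as q2 against q1, and comparisons across positions take q2 to be the same genotype in each table.

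PIPs form tetramers in which each subunit is a water pore, and some also pass other small molecules such as carbon dioxide or hydrogen peroxide. In maize, PIP1 proteins reach the plasma membrane efficiently when they assemble with PIP2 proteins, and PIP2 proteins reach it by themselves and are generally the stronger water channels. Water entry through such pores serves cell enlargement in growing tissue and water exchange around the veins and mesophyll of mature leaves.

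In the deposited coordinates, for which no source used here names a genome build, PIP1-1 (GRMZM2G174807) spans bases 18133343 to 18135367 of chromosome 2 and PIP1-5 (GRMZM2G081843) bases 169974856 to 169976357 of chromosome 4. PIP2-2 (GRMZM2G092125) lies on chromosome 2 at 168551299 to 168554811, PIP2-5 (GRMZM2G178693) on chromosome 2 at 27867804 to 27870068, PIP2-3 (GRMZM2G081192) on chromosome 4 at 143863794 to 143866843 and PIP2-4 (GRMZM2G154628) on chromosome 5 at 195187059 to 195190075. PIP2-1 (GRMZM2G014914, 41420176 to 41423983) and PIP2-6 (GRMZM2G047368, 41539129 to 41540625) lie 115 kb apart on chromosome 7, with 2 listed genes between them. GRMZM2G136032 lies on chromosome 9 at 6467253 to 6468954. The spans are whole loci, and no exons or UTRs are given.

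All levels are FPKM (fragments mapped to a gene, scaled to transcript length and to the size of the library), 1 value per group pooled by the authors over its 3 libraries, from the authors' deposited table of the position. Since no library has a value of its own, there is no SD. The error of a log2 change is the standard error implied by the deposited Cuffdiff statistic. It does not match the deposited p-values under a normal distribution. For PIP1-1 at -4, 0.80 ± 0.39 goes with a deposited Cuffdiff p of 4.50e-04, smaller than a normal distribution would give. The ± values are therefore not the spread behind the authors' p-values. A gene was called at a Cuffdiff adjusted p under 0.05. Read depth per library is unknown, and how reads shared by similar PIP genes were assigned is not given, so levels of single PIP2 genes are uncertain to that extent.

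pDCT2 itself, the gene defective in dct2-1, was lower in q2 in each of the authors' deposited tables. The difference was 4.83-fold at -4, 52.7-fold at -1, 71.1-fold at +4 and 32.7-fold at +10. The group low in pDCT2 was thus q2 at each position, which goes with q2 being dct2-1, though no label says so. The median log2 change of all tested genes lay between 0.01 and 0.02 in the 4 tables. FPKM sums were lower in q2, and rescaling both groups to equal sums would raise every log2 change by 0.04 at -4, 0.10 at -1, 0.43 at +4 and 0.35 at +10, so that the median gene would stand at 0.44 at +4 and 0.37 at +10. Changes are therefore read relative to the median gene. Markers of leaf cell types moved with position and group. At -4, 4 of 5 mesophyll markers and 4 of 4 bundle sheath markers were called higher in q2 and 5 of 5 markers of dividing cells lower. The summed levels at -4 were 2362 FPKM in q2 and 1237 FPKM in q1 for mesophyll, 1568 FPKM in q2 and 723 FPKM in q1 for bundle sheath and 174 FPKM in q2 and 291 FPKM in q1 for dividing cells. At -1, 1 of 5 mesophyll markers was called lower and 0 of 4 bundle sheath markers in either direction. At +4 all 3 tested mesophyll markers and 2 of 4 bundle sheath markers were called lower. At +10, 4 of 5 mesophyll markers and 0 of 4 bundle sheath markers were called lower, with mesophyll sums of 29497 FPKM in q2 and 49737 FPKM in q1. Of the markers of dividing cells, RNRS1 alone was called at +4 and +10 and there it was higher, at 20.5 FPKM in q2 and 3.99 FPKM in q1 at +4, and 19.5 FPKM in q2 and 3.88 FPKM in q1 at +10, with 3 of the 5 tested at +4 and 2 at +10. None of the markers was at 0 in either group at -4 or +10, and their part in the PIP differences was not tested.

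At the leaf base (-4) every PIP gene that was tested was higher in q2. The authors' deposited table called 7 of 7 tested members higher and 0 lower, while 15.2% of the 20174 tested genes were called higher and 12.7% lower. The median log2 change of the 7 members was 1.17, against 0.02 for all tested genes. Whether such a difference comes from more cells of a type or from more transcript per cell cannot be told apart in whole segments.

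The 3 members with the highest levels at the base of q1 changed by up to 1.17 on the log2 scale. PIP1-1 stood at 1667 FPKM in q2 and 956 FPKM in q1 at the base, a log2 change of 0.80 ± 0.39 (the authors' Cuffdiff adjusted p = 0.00318). PIP2-1 stood at 1515 FPKM in q2 and 672 FPKM in q1 (log2 change 1.17 ± 0.42, the authors' adjusted p = 4.92e-04). These levels placed PIP1-1 at rank 17 of all listed genes in q2 and rank 49 in q1, and PIP2-1 at rank 20 in q2 and rank 103 in q1. PIP2-2 had 265 FPKM in q2 and 161 FPKM in q1, the smallest change of the 7 at 0.72 ± 0.26.

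Larger folds were found for PIP2-3, PIP2-4 and PIP2-6, each under 100 FPKM at the base of q1. PIP2-6 rose most, to 25.4 FPKM in q2 against 1.78 FPKM in q1 (14.3-fold, log2 change 3.84 ± 0.50), and ranked 50th among all tested genes by its change. PIP2-3 rose to 41.1 FPKM in q2 against 6.69 FPKM in q1 (6.15-fold), rank 155. PIP2-4 rose to 281 FPKM in q2 against 67.5 FPKM in q1 (4.17-fold), rank 311. PIP1-5 was low in both groups, at 2.22 FPKM in q2 and 1.13 FPKM in q1, and its call was marginal (0.98 ± 0.65, the authors' Cuffdiff adjusted p = 0.0481). PIP2-5, a gene studied mostly in maize roots, was too low to be tested, at 0.498 FPKM in q2 and 0.0574 FPKM in q1, and GRMZM2G136032 was listed at 0 in both. A normal test on the implied errors, added after the values were seen, passed 3 of the 7, namely PIP2-3, PIP2-4 and PIP2-6. PIP2-1 and PIP2-2 did not pass, although they share the smallest deposited p-value at -4 with the 3 that did. For called members that did not pass, the implied errors are wider than the deposited p-values would give under a normal distribution. Here and at the other positions, not passing this test is therefore no evidence against a Cuffdiff call. The share of all tested genes that passed it is not given, so its counts are not set against a background.

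**Figure D1:**
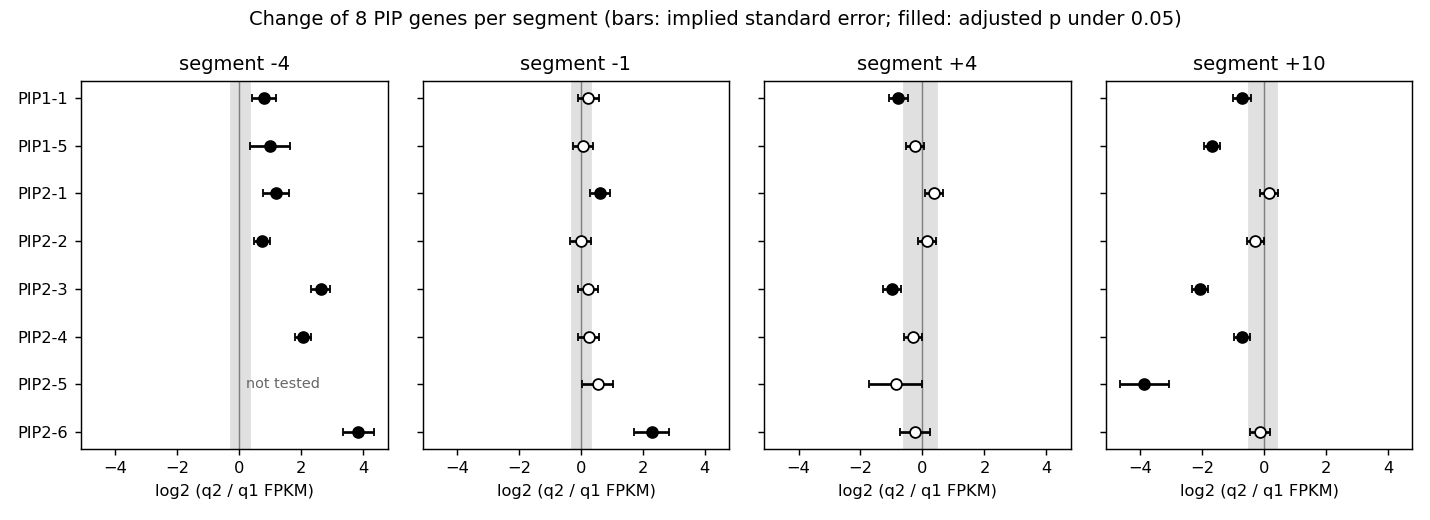
Log2 change of q2 over q1 for the 8 named PIP genes at each leaf segment, with bars for the standard error implied by the deposited Cuffdiff statistic and a grey band for the middle 50% of all tested genes (from the lower to the upper quartile, -0.26 to 0.33 at -4 and -0.47 to 0.43 at +10). All 7 tested genes lie to the right of the band at -4, and the 5 called genes at +10 lie to its left.

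At the transition segment (-1) PIP2-6 and PIP2-1 were higher in q2 and no other member was called. The authors' deposited table called 2 of 8 tested members higher in q2 and 0 lower, against 9.48% of tested genes called higher and 8.22% lower. PIP2-6 rose to 8.83 FPKM in q2 against 1.82 FPKM in q1 (4.86-fold, log2 change 2.28 ± 0.57, the authors' Cuffdiff adjusted p = 7.77e-04). PIP2-1 rose to 736 FPKM in q2 against 480.1 FPKM in q1, by 0.62 ± 0.33 (the authors' Cuffdiff adjusted p = 0.0126). The normal test passed PIP2-6 alone.

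The other 6 tested members were not called at -1. PIP1-1 had 940.2 FPKM in q2 and 799 FPKM in q1, and PIP1-5 had 103 FPKM in q2 and 98.2 FPKM in q1. PIP2-4, the most abundant here of the members not called except PIP1-1, had 571 FPKM in q2 and 481 FPKM in q1. PIP2-2 (276 FPKM in q2, 277 FPKM in q1), PIP2-3 (132 FPKM in q2, 113 FPKM in q1) and PIP2-5 (6.58 FPKM in q2, 4.53 FPKM in q1) had log2 changes of -0.01 ± 0.33, 0.23 ± 0.33 and 0.54 ± 0.49. With errors of this size, the values do not show that the levels were equal. The median change of the 8 was 0.24, against 0.01 for all tested genes.

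In mid-leaf (+4) the authors' deposited table called 2 of 8 tested members lower in q2 and 0 higher, which is near the 22.8% of tested genes called lower there (19.5% were called higher). PIP1-1 fell to 469.8 FPKM in q2 against 806 FPKM in q1, with a log2 change of -0.78 ± 0.31. PIP2-3 fell to 109 FPKM in q2 against 216 FPKM in q1, with a change of -0.99 ± 0.29. Both had an adjusted p of 2.88e-04 in the authors' deposited table, the smallest in it. The normal test as deposited passed PIP2-3 but not PIP1-1, although their deposited p-values were equal. After rescaling to equal sums these changes were -0.35 for PIP1-1 and -0.56 for PIP2-3 and neither passed, while PIP2-1 passed as higher in q2 (0.79 ± 0.30). The median gene stood at 0.44 on that scale.

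The members not called in mid-leaf lay on both sides. PIP2-1 had 457 FPKM in q2 and 354 FPKM in q1 (0.37 ± 0.30), and PIP2-2 had 321 FPKM in q2 and 289.8 FPKM in q1 (0.15 ± 0.29). PIP1-5 had 81.0 FPKM in q2 and 96.4 FPKM in q1, and PIP2-4 had 161 FPKM in q2 and 199 FPKM in q1. PIP2-5, at 0.755 FPKM in q2 and 1.38 FPKM in q1, and PIP2-6, at 4.43 FPKM in q2 and 5.22 FPKM in q1, were the 2 lowest of the tested members. The median change of the 8 was -0.28 as deposited and 0.15 after rescaling to equal sums. The median of all tested genes was 0.01 as deposited and 0.44 after rescaling, so the members lay below it on both scales.

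At the tip (+10) the authors' deposited table called 5 of 8 tested members lower in q2 and 0 higher, against 22.3% of tested genes called lower and 21.5% higher. Each of the 5 had an adjusted p of 2.59e-04, the smallest in the authors' deposited table. PIP2-5 fell most, to 0.893 FPKM in q2 against 13.0 FPKM in q1 (log2 change -3.87 ± 0.79, or -2.89 with a pseudocount of 1 FPKM), and was 117th from the bottom of all tested genes by its change. PIP2-3 fell to 29.3 FPKM in q2 against 123 FPKM in q1 (-2.06 ± 0.26), and PIP1-5 to 63.9 FPKM in q2 against 204 FPKM in q1 (-1.67 ± 0.26). PIP1-1 fell to 548 FPKM in q2 against 902 FPKM in q1 and PIP2-4 to 100.4 FPKM in q2 against 164 FPKM in q1, both by a log2 of about 0.7 (-0.72 ± 0.29 and -0.71 ± 0.26).

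PIP2-1, PIP2-2 and PIP2-6 were not called at the tip. PIP2-1 had 558 FPKM in q2 and 499 FPKM in q1, PIP2-2 had 358 FPKM in q2 and 434 FPKM in q1, and PIP2-6 had 16.1 FPKM in q2 and 17.8 FPKM in q1. The median change of the 8 tested members was -0.71, against 0.02 for all tested genes. The normal test passed 4 of the 5 called members (all but PIP1-1), although the 5 had equal deposited p-values. After rescaling to equal sums it passed 3 (PIP1-5, PIP2-3 and PIP2-5), where PIP1-1 and PIP2-4 stood at -0.37 and -0.36 and the median gene at 0.37.

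Of the 7 members tested at all 4 positions, 4 (PIP1-1, PIP1-5, PIP2-3 and PIP2-4) were called higher in q2 at the base and lower at the tip, and 3 (PIP2-1, PIP2-2 and PIP2-6) were called lower nowhere. Of the 14916 genes tested at both ends of the leaf, 4.49% were called higher in q2 at the base and lower at the tip. By the normal test on the implied errors, PIP2-3 and PIP2-4 passed at both ends, PIP1-5 passed at the tip alone and PIP1-1 at neither. Since those errors do not match the deposited p-values, not passing is no evidence against these calls. Whether the change itself differed between base and tip was tested with a normal test on the difference of the log2 changes, adjusted over 14902 genes. This test rests on 3 pooled libraries per group, so its p-values are not given. It passed 5 of 7 members, all with the higher change at the base. Of all genes 9.27% passed in either direction and 6.63% with the higher change at the base. The differences, base minus tip, were 4.69 ± 0.40 for PIP2-3, 3.98 ± 0.60 for PIP2-6, 2.77 ± 0.37 for PIP2-4, 2.65 ± 0.70 for PIP1-5 and 1.52 ± 0.48 for PIP1-1. PIP2-1 (1.01 ± 0.51) and PIP2-2 (1.00 ± 0.37) did not pass. With the same implied errors in use, this does not show that their changes were equal at base and tip. After rescaling to equal sums 4 members passed, and the share of all genes passing on that scale is not given.

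The same test was run on the other 5 pairs of positions. Between -4 and -1 it passed 2 of 7 members, where 0.958% of all genes passed in either direction. Between -4 and +4 it passed 4 of 7 members and 9.50% of all genes, and between -1 and +10 it passed 4 of 8 members and 3.48% of all genes. It passed 1 of 8 members between -1 and +4, where 3.49% of all genes passed, and 0 of 8 between +4 and +10, where 0.475% passed. Each member that passed had the higher change at the position nearer the base. Most of all genes that passed had that direction too. They were 0.795% of all genes between -4 and -1 and 7.49% between -4 and +4. Between -1 and +4 they were 2.89%, and between -1 and +10 they were 2.41%. The direction is therefore not particular to PIP genes.

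Read along the leaf, the 2 groups gave the PIP genes the following profiles. The 4 tables were normalized separately, so levels across positions are set side by side without a test. In q1, PIP1-1 was nearly level, with its highest value 1.20 times its lowest, and PIP2-1 varied 1.90-fold with its minimum at +4. In q2 both were highest at the base and lowest at +4, with a ratio of 3.55 for PIP1-1 and 3.31 for PIP2-1. The remaining named members were lowest at the base in q1. In q1 the level at -1 over that at -4 was 87.3-fold for PIP1-5, 78.9-fold for PIP2-5, 16.9-fold for PIP2-3, 7.12-fold for PIP2-4 and 1.72-fold for PIP2-2. The folds of PIP1-5 and PIP2-5 divide by very low levels at -4 in q1, 1.13 FPKM and 0.0574 FPKM. PIP2-6 in q1 stood at 1.78 FPKM at -4, 1.82 FPKM at -1 and 17.8 FPKM at the tip.

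In q2 the level at -1 over that at -4 was 46.6-fold for PIP1-5, 13.2-fold for PIP2-5, 3.22-fold for PIP2-3, 2.03-fold for PIP2-4 and 1.04-fold for PIP2-2, and PIP2-6 was 2.88-fold higher at -4 than at -1. The base level of q2 lay between the -4 and -1 levels of q1 for 5 members (PIP1-5, PIP2-2, PIP2-3, PIP2-4 and PIP2-5) and above both for 3 (PIP1-1, PIP2-1 and PIP2-6). The highest level along the leaf was a smaller multiple of the lowest in q2 than in q1 for 6 of 8 named members, the exceptions being PIP1-1 and PIP2-1. The share of all genes with either pattern was not computed, so neither count is shown to be particular to PIP genes. PIP2-5 counts in both although it was too low at -4 to be tested (0.498 FPKM in q2, 0.0574 FPKM in q1).

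**Figure D2:**
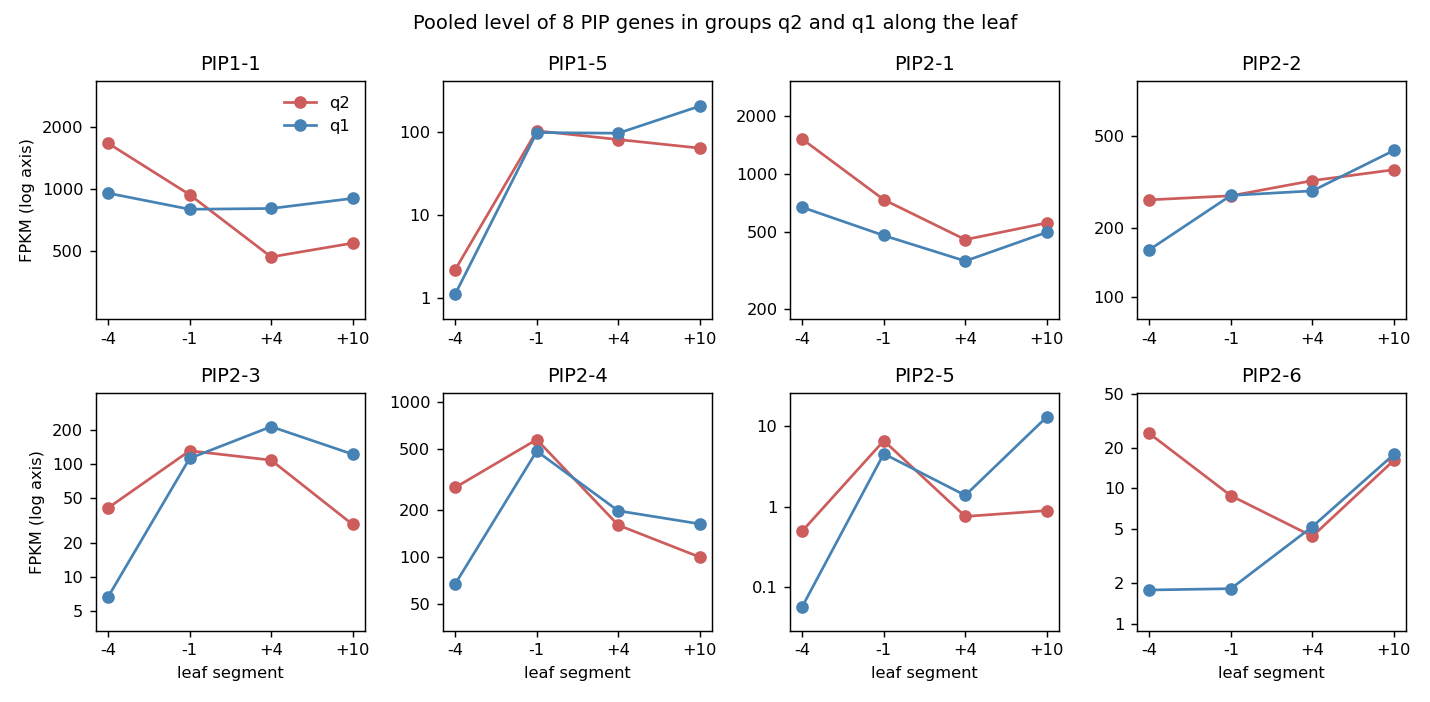
Pooled FPKM of each named PIP gene (log axis, its own scale per panel) at the 4 leaf segments in q2 (red) and q1 (blue), with no error since each point is 1 pooled value. PIP2-6 in q2 stands at 25.4 FPKM at -4, 4.43 FPKM at +4 and 16.1 FPKM at +10, and in q1 at 1.78 FPKM at -4, 5.22 FPKM at +4 and 17.8 FPKM at +10, so that the groups lie far apart at the base and close together at the tip.

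Summed over the 9 members, PIP transcript at the base was 3797 FPKM in q2 and 1866 FPKM in q1 (2.04-fold). At -1 the sum was 2774 FPKM in q2 and 2255 FPKM in q1. At +4 it was 1604 FPKM in q2 and 1968 FPKM in q1, and at +10 it was 1676 FPKM in q2 and 2357 FPKM in q1. As deposited, the sum in q2 was highest at the base and in q1 at the tip. The log2 ratio of the tip sum over the base sum was -1.18 in q2 and 0.34 in q1 as deposited. Set against the median level of genes above 0 in all tables, it was -0.11 in q2 and 1.29 in q1, and the tip-over-base direction turned for PIP2-3 and PIP2-6 in q2 and for PIP1-1 and PIP2-1 in q1. At +4 the log2 ratio of the sums was -0.30 as deposited and 0.13 after rescaling to equal sums, where the median gene stood at 0.44.

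PIP1-1 and PIP2-1 made up most of the sum at the base, with 43.9% and 39.9% in q2 and 51.2% and 36.0% in q1. The PIP1 share was smaller in q2 at each position. These 2 members held 44.0% of the sum in q2 and 51.3% in q1 at -4, and 37.6% in q2 and 39.8% in q1 at -1. They held 34.3% in q2 and 45.8% in q1 at +4, and 36.5% in q2 and 46.9% in q1 at +10. These shares are ratios within a group, which the rescaling leaves as they are, and they were not tested. In mid-leaf the summed PIP1 level was 551 FPKM in q2 and 902 FPKM in q1. The PIP2 sums there were 1053 FPKM in q2 and 1066 FPKM in q1, a log2 ratio of -0.02 as deposited. After rescaling it was 0.41, with the median gene at 0.44. PIP2-4 held 20.6% in q2 and 21.3% in q1 at -1, its highest share in each group, and 7.41% in q2 and 3.62% in q1 at the base.

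**Figure D3:**
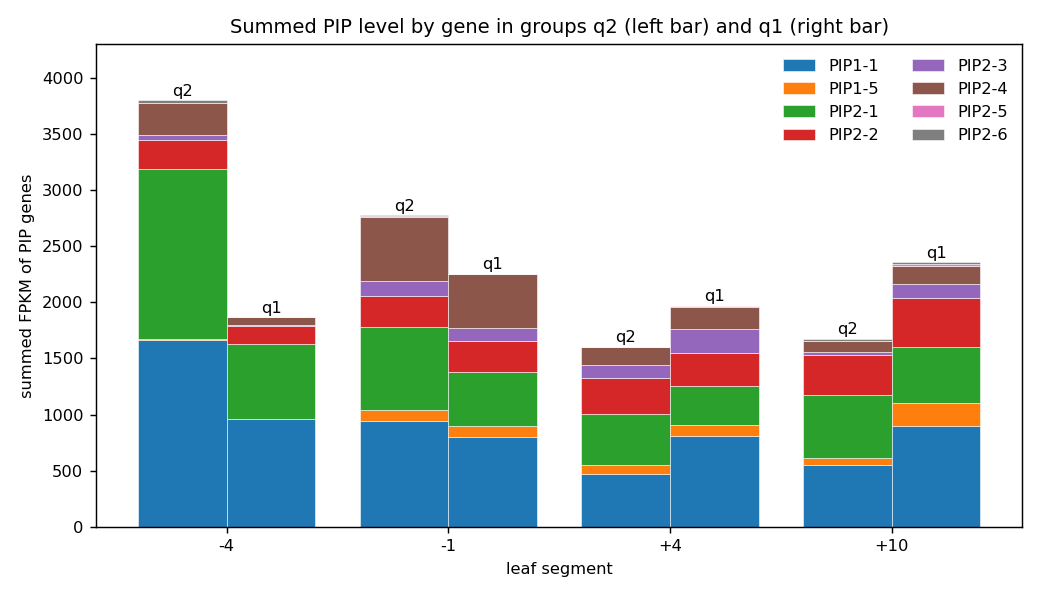
Summed FPKM of the named PIP genes at each leaf segment, stacked by gene, with q2 on the left and q1 on the right of each pair (GRMZM2G136032, at most 0.349 FPKM, is left out of the drawing). The q2 bar is the taller at -4 (3797 against 1866 FPKM) and the shorter at +10 (1676 against 2357 FPKM).

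Aquaporins of the other subfamilies were called in both directions at -1, +4 and +10. The name table gave 19 further aquaporin genes, 18 of tonoplast (TIP), nodulin-26-like (NIP) and small intrinsic (SIP) type and 1 PIP locus, GRMZM2G392975, that carries the names PIP1-3 and PIP1-4. At -4, 3 of 9 tested were called higher in q2 and 0 lower, with a median log2 change of 0.30. Over all tested genes 15.2% were called higher and 12.7% lower there. TIP2-1, a vacuolar membrane aquaporin, rose to 440.1 FPKM in q2 against 45.4 FPKM in q1 (3.28 ± 0.27) in the authors' deposited table. PIP1-3/PIP1-4 rose to 161 FPKM in q2 against 87.7 FPKM in q1 (0.88 ± 0.24), and NIP3-1 to 6.22 FPKM in q2 against 3.11 FPKM in q1. At -1, 1 of 12 was called higher (TIP2-1, by 0.66 ± 0.34) and 2 lower, TIP4-1 (-4.34 ± 0.71) and NIP2-1 (-1.34 ± 0.39). Over all tested genes 9.48% were called higher and 8.22% lower at -1, so the count of higher calls is near that share.

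In mid-leaf and at the tip the other aquaporins had calls in both directions, with 3 of 14 higher and 5 lower at +4 and 1 of 12 higher and 6 lower at +10. Over all tested genes 19.5% were called higher and 22.8% lower at +4, and 21.5% higher and 22.3% lower at +10, so the count of higher calls at +4 is near that share. The PIP1-3/PIP1-4 locus, added here after its values were seen, rose in mid-leaf to 44.9 FPKM in q2 against 32.2 FPKM in q1 (0.48 ± 0.30), where PIP1-1 fell. NIP2-1, listed also as Lsi1 after the silicon channel of that name in rice, fell to 13.2 FPKM in q2 against 69.7 FPKM in q1 at +4 and to 12.1 FPKM in q2 against 67.9 FPKM in q1 at +10 in the authors' deposited tables. NIP2-3, listed as Lsi6, fell by 1.33 ± 0.48 at +4 and by 1.46 ± 0.39 at +10. TIP3-1 rose to 11.4 FPKM in q2 against 0.843 FPKM in q1 at +4 and to 28.5 FPKM in q2 against 0.842 FPKM in q1 at +10. TIP1-2 fell at +4, to 0.234 FPKM in q2 against 5.33 FPKM in q1, and NIP1-1 at +10, to 1.52 FPKM in q2 against 9.46 FPKM in q1.

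Expansins, which loosen the walls of enlarging cells, were called higher in q2 for 5 and lower for 1 of 9 tested genes at -4. Over all tested genes 15.2% were called higher and 12.7% lower there. EXPA5 rose by 1.50 ± 0.34, expB8 by 1.18 ± 0.26, expB2 by 0.70 ± 0.24 and expB4 by 0.68 ± 0.26 in the authors' deposited table. At -1, 3 of 6 were lower and 0 higher (expB4 at -2.61 ± 0.36, expa1 at -1.38 ± 0.36 and expB6 at -0.69 ± 0.41), against 8.22% of all tested genes called lower. At +4, 4 of 7 were lower and 0 higher, against 22.8% called lower, with expB4 at -5.69 ± 0.57 and expa1 at -1.44 ± 0.32. At the tip 1 of 3 was higher, EXPA5 by 0.85 ± 0.35, against 21.5% of all tested genes called higher. Expansins were thus called lower at -1, where 0 PIP genes were called lower, and whether the lists differ there was not tested. Of 3 plasma membrane proton ATPase genes, which energise solute uptake, mha2 rose by 0.49 ± 0.24 at -4 and fell by 0.83 ± 0.27 at +10. mha1, at most 2.48 FPKM at +4 and +10, was called higher there, and 0 of 2 tested were called at -1.

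**Figure D4:**
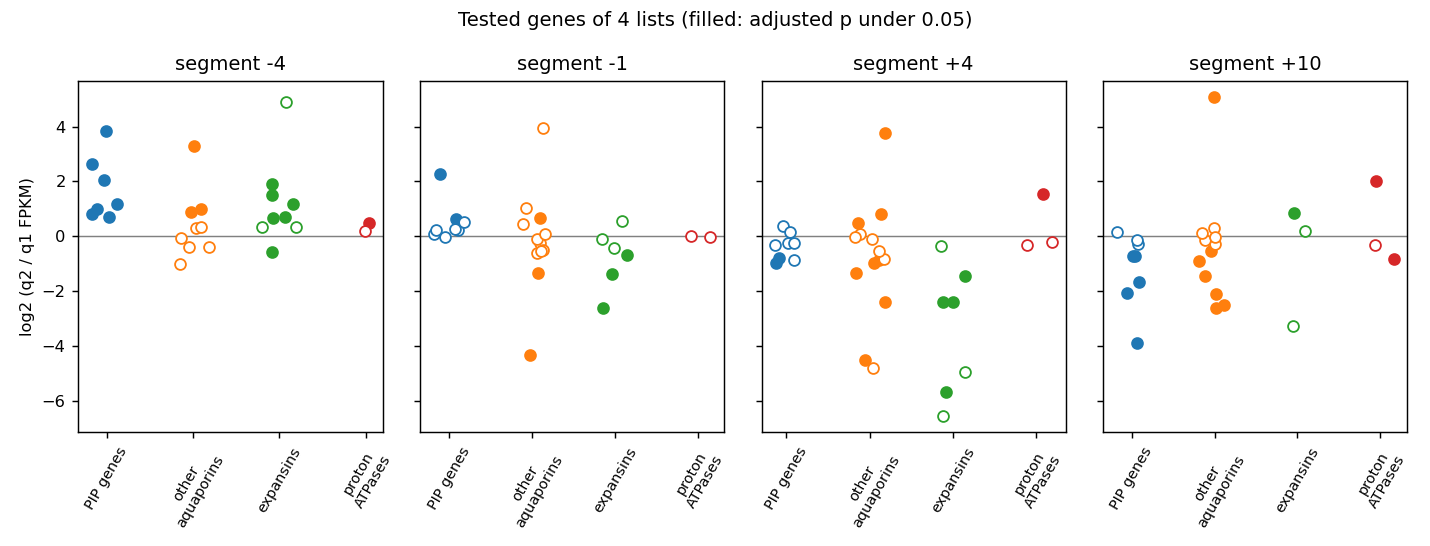
Log2 change of q2 over q1 for each tested gene of 4 lists at each leaf segment (1 point per gene, filled where the Cuffdiff adjusted p was under 0.05, spread sideways for legibility). At -4 the 7 tested PIP genes are all above 0, whereas the 9 other tested aquaporins run from -1.00 to 3.28.

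Likeness of pattern was measured as Pearson's r of log2(FPKM + 1) over the 8 pooled values (2 groups at 4 positions) among 1556 named genes tested in all 4 tables, members left out. The 8 values share tables and normalization, so r is a description only. The genes most like the summed PIP level were sam2 (r = 0.92), aprl8 (0.91), GRMZM2G374971 (0.91), GRAS79 (0.91) and aprl4 (0.90). sam2 had 2115 FPKM in q2 and 1356 FPKM in q1 at the base, and 1365 FPKM in q2 and 1698 FPKM in q1 at the tip. By rank correlation 2 of these 5 stayed among the first 5. Of the members, PIP1-1 (r = 0.90) and PIP2-1 (0.77) had the highest r with the sum, of which they themselves are large parts, while r was -0.29 for PIP1-5 and -0.04 for PIP2-2.

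The genes most like PIP2-6 were HYP1 (r = 0.97), pc326 (0.94), the tonoplast aquaporin TIP2-1 (0.87), Siz1b (0.86) and PP (GRMZM5G829894, 0.85). HYP1 had 30.6 FPKM in q2 and 22.5 FPKM in q1 at the base, where PIP2-6 had 25.4 FPKM in q2 and 1.78 FPKM in q1. TIP2-1 had 440.1 FPKM in q2 and 45.4 FPKM in q1 at the base. By rank correlation 3 of these 5 stayed among the first 5.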

How the data were processed

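Per the submitters' processing notes, GSNAP was the aligner and Cuffdiff the test, and no source used here names their versions, the genome build or the gene models. For each gene the deposited tables give, per the file headers, 1 FPKM value for group q1 and 1 for group q2, pooled by the authors over 3 libraries, a test statistic (a score without fixed range), a p-value and an adjusted p-value. The smallest deposited p-value is 5.00e-05. Values per library were not analysed here, so p-values rest on the authors' estimate of spread.

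Log2 changes were recomputed as q2 over q1 FPKM, their error as the change over the deposited statistic, and differences between tables with a two-sided normal test with Benjamini-Hochberg adjustment across all genes, checked on simulated data (python 3.11.15, scipy 1.17.1). In the test of differences the errors of different tables are treated as independent. Genes with too much data at +4 (2) were left out of sums. Names came from RefSeq (assembly Zm-B73-REFERENCE-NAM-5.0), where 18774 identifiers matched. Lists were taken by symbol or synonym, and the members and lists were chosen with earlier results of these data known. Named genes outside the family are the 4 called genes per list and position with the largest change among those reaching 5 FPKM in either group, and the 5 most alike genes. The marker pck1 matched no identifier and was left out, and pep1 and pdk1, whose symbols match several identifiers, were assigned by hand.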

Additional observations from a re-analysis of the deposited data

Results flagged for a closer look

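The log2 change of q2 over q1 differed between the base (-4) and the tip (+10) for 5 PIP genes, by a normal test on the difference adjusted across all genes. Of all genes 9.27% passed this test in either direction and 6.63% with the higher change at the base. After rescaling to equal sums 4 PIP genes passed. The implied errors used in the test do not match the deposited p-values. Base minus tip, the difference was 1.52 for PIP1-1, 2.65 for PIP1-5, 4.69 for PIP2-3, 2.77 for PIP2-4 and 3.98 for PIP2-6. For PIP2-6 the tip change was close to 0 (-0.14 ± 0.32), while the other 4 were called higher at the base and lower at the tip.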

How the results depend on the processing

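No paired analysis was possible because the tables hold pooled values without replicate numbers, and for the same reason no replicate could be left out. Requiring a change of at least 2-fold left 4 members higher in q2 at -4, 1 higher at -1, 0 lower at +4 and 3 lower at +10. It left 0 other aquaporins higher at -1, with 1 higher and 3 lower at +4. Expansins came to 3 higher and 0 lower at -4 and 0 higher at +10, and proton ATPases to 0 higher at -4 and 0 lower at +10. An adjusted p under 0.01 left 1 member higher at -1, 3 other aquaporins lower at +4 and 0 expansins lower at -4. The normal test, chosen after seeing the data, passed 3 members higher at -4, 1 higher at -1 and 1 lower at +4. After rescaling to equal sums it passed 3 higher at -4, 1 higher at -1, 1 higher (PIP2-1) and 0 lower at +4, and 3 lower at +10. On that scale the median gene stood at 0.44 at +4. The implied errors behind the normal test do not match the deposited p-values, so its counts do not decide which Cuffdiff calls hold. For the counts in this paragraph the share of all tested genes under the same rule is not given. None of these counts is therefore shown to be particular to its list.

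Rescaling to equal sums raised the median change of the members to 0.34 at -1, 0.15 at +4 (turning its direction) and -0.37 at +10. The log2 ratio of summed levels for all members, PIP1 and PIP2 became 0.40, 0.32 and 0.45 at -1, 0.13, -0.28 and 0.41 at +4, and -0.14, -0.50 and 0.11 at +10, which turned the direction of the total at +4 and of PIP2 at +4 and +10. The median gene stood at 0.11 at -1, 0.44 at +4 and 0.37 at +10 after this rescaling. Relative to the median gene none of these directions turned. Of 31 member changes 25 kept their direction and 6, none of them called, turned: PIP2-2 to 0.09 at -1 and 0.07 at +10, PIP2-6 to 0.19 at +4 and 0.21 at +10, PIP1-5 to 0.18 and PIP2-4 to 0.12 at +4. A pseudocount of 1 FPKM and centring on the median gene left all 31 directions as they were. Without the most abundant gene of each set, the ratios for all members, PIP1 and PIP2 were 1.23, 0.98 and 1.37 at -4, -0.04, -0.25 and -0.26 at +4, and -0.37, -1.67 and -0.57 at +10, and at -1 they were 0.07 for PIP1 and 0.18 for PIP2.

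The summed PIP level at +10 over that at -4, a log2 ratio of -1.18 in q2 and 0.34 in q1, became -1.02 in q2 and 0.19 in q1 after rescaling, and -0.11 in q2 and 1.29 in q1 relative to the median level of genes above 0 in all tables. Relative to that median the ratio turned for PIP2-3 (0.58) and PIP2-6 (0.41) in q2 and for PIP1-1 (0.87) and PIP2-1 (0.53) in q1. By rank correlation 2 of the 5 genes most like the summed level and 3 of the 5 most like PIP2-6 were shared. The cause of these shifts was not tested. Depth is unknown, so it sets no stated limit on the low values of PIP2-5 and PIP1-5.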

Other observations

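The 2 genes listed between PIP2-1 and PIP2-6 on chromosome 7, AC198901.4_FG004 and GRMZM2G066726, were not tested at any position and reached at most 0.160 FPKM. Both flanking PIP genes were called higher in q2 at -4 and -1 and neither at +4 or +10. Their levels differed widely: at the base PIP2-1 had 1515 FPKM in q2 and 672 FPKM in q1, and PIP2-6 had 25.4 FPKM in q2 and 1.78 FPKM in q1. This pair was chosen after its values were seen.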
